A study of Mus musculus with 15 samples.

Results

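Healed dorsal skin of mice was compared between 15 mm and 10 mm full-thickness excisional wounds that had both been filled with stem cell-laden beads. The comparison takes 6 of the 15 sequenced samples, with 3 from 15 mm and 3 from 10 mm wounds, and was chosen by the wound diameter and treatment in the sample labels. All mice were balb/c males of 4 to 6 weeks with the label genotype WT, and both groups received the HDB treatment, in which human umbilical cord mesenchymal stem cells (MSCs) of 2 donors were printed at high density in Matrigel beads and set in a sparse pattern among acellular beads. At 10 mm, 15% of the skin of the back was lost and 56 laden beads with 84000 MSCs were set in, and at 15 mm, 35% was lost and 120 laden beads with 180000 MSCs were set in, so wound size and the number of transplanted cells cannot be told apart. Skin was taken either after 4 weeks of implantation or on day 21, since both times are stated. The other 9 samples, used here for context, were skin healed from 10 mm and 15 mm wounds under acellular Matrigel beads and normal skin, with 3 samples each. RNA was taken from whole skin, so fewer cells of a type and less RNA per cell cannot be told apart. The labels do not say that the samples came from separate mice, and p-values measure only the spread between these samples. The table lists mouse genes only, and the part of human transcripts in the HDB counts was not tested.

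A hair is built in 2 concentric parts. The shaft is packed with hair keratins and with keratin-associated proteins (KRTAPs) that crosslink them, and the inner root sheath that moulds the shaft uses its own keratins and trichohyalin. These genes are switched on in growing follicles and are nearly silent in resting ones. Sebaceous glands open into the follicle and fill their cells with wax esters, cholesterol esters and triglycerides. Cholesterol is made from acetyl-CoA through mevalonate and squalene, and most enzymes of that route are transcribed together under the SREBP factors, which respond to the sterol content of the cell.

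Total counts of the 6 HDB samples ranged from 16652756 to 18074237, and 15369 of 18929 genes were tested. Log2 CPM (counts scaled to a common library size by the TMM method) correlated across genes at 0.923 to 0.967 between the 10 mm samples, at 0.961 to 0.975 between the 15 mm samples and at 0.911 to 0.974 between the sizes. Keratinocyte keratins were abundant in all 6 samples, with Krt5 between 3333 and 6612 CPM and Krt14 between 2611 and 5763 CPM. The 10 mm libraries were unlike each other, with mean correlations to their group of 0.943 for replicate 1, 0.945 for replicate 2 and 0.965 for replicate 3. Replicate 1 had the highest summed skeletal muscle genes, and replicate 2 had summed neutrophil genes at 569 CPM against 25.5 and 57.7 CPM, and the lowest skeletal muscle genes at 1436 CPM against 58454 CPM in replicate 1 and 13958 CPM in replicate 3.

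No gene differed between the HDB 15 mm and HDB 10 mm groups at an adjusted p under 0.05. Out of 15369 genes 0 (0%) were called by edgeR (quasi-likelihood test, Benjamini-Hochberg adjusted), and the smallest adjusted p was 0.133. At an unadjusted p under 0.05 there were 1896 genes, with 871 (5.67%) higher and 1025 (6.67%) lower at 15 mm. In 1693 genes (11%) all 3 samples of 15 mm lay above all 3 of 10 mm, and in 1821 genes (11.8%) all lay below. DESeq2 on the same counts called 563 genes, with 202 (1.31%) higher and 361 (2.35%) lower at 15 mm. The median log2 fold change over all genes was 0.02, with 52.1% of genes above 0. All differences below are therefore described by levels, by separation of the samples and by both tools, and none was called by edgeR.

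Differences in 4 groups of genes are summarized first, without a ranking against the other lists. At 15 mm, structural genes of the hair were higher, enzymes of cholesterol synthesis and of sebaceous lipids were lower, cell cycle genes were lower, and genes with long transcripts that regulate chromatin were lower. Of the cell cycle genes 0 had an unadjusted p under 0.05 and 0 were called by DESeq2, and the median of the chromatin list went from -0.37 to -0.10 once length trends were taken out of each sample. The matrix, fat and vessel genes were mostly higher at 15 mm with overlapping samples. Neutrophil and interferon genes were lower at 15 mm, by medians that shrank when 1 sample of the 10 mm group was left out.

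**Figure D1:**
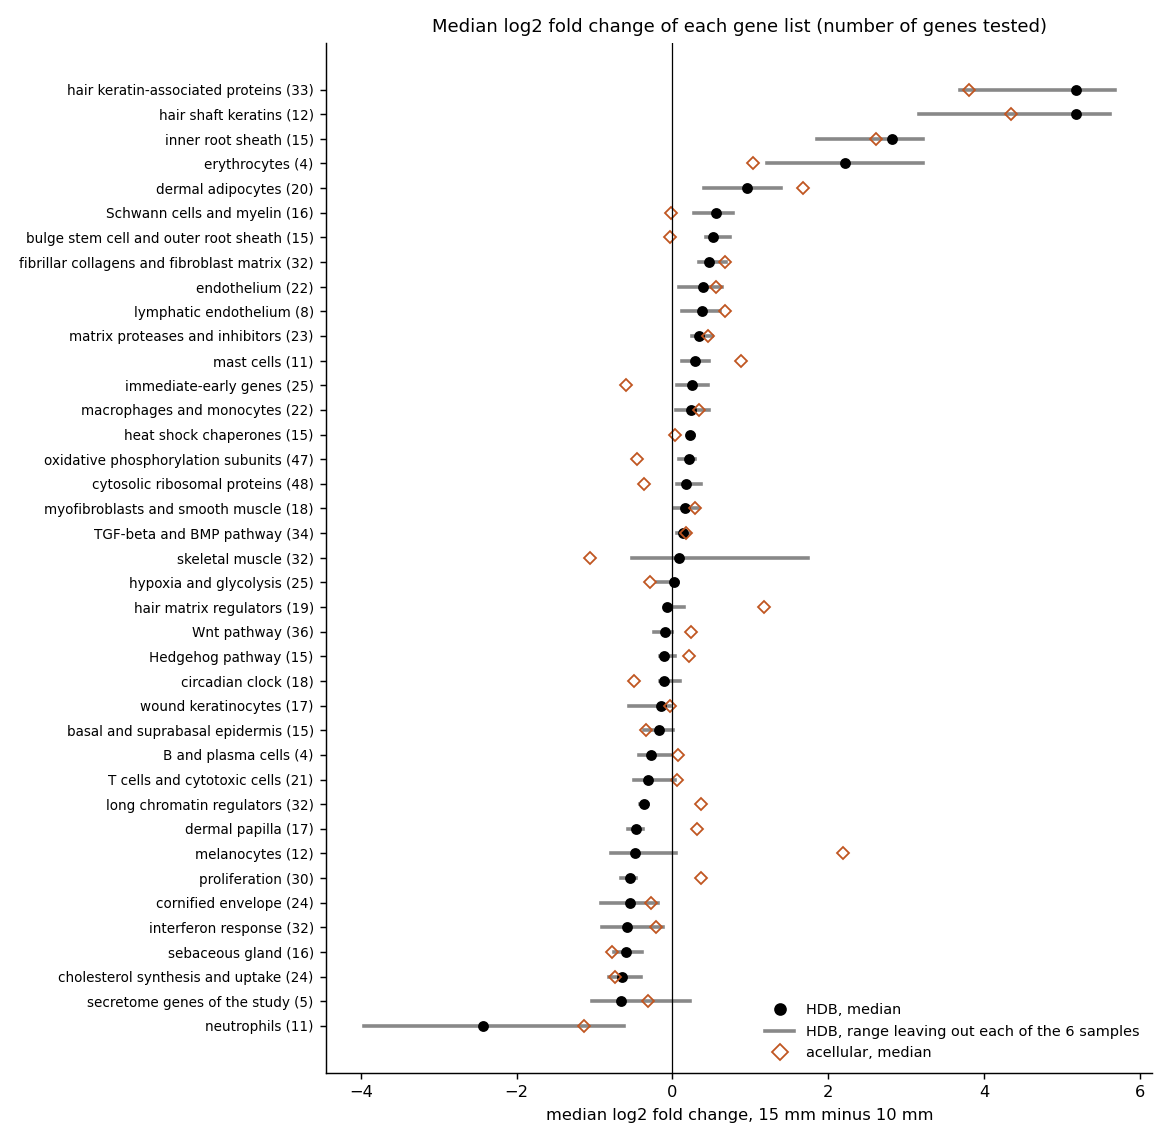
Median log2 fold change (15 mm minus 10 mm) of each of 39 gene lists, with the number of genes tested in brackets. Black points are HDB medians, grey bars the range when each of the 6 HDB samples was left out, and open diamonds the medians in acellular wounds. Hair shaft keratins and KRTAPs lie farthest to the right at medians of 5.18 and 5.19, and neutrophil genes farthest to the left at -2.44.

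Hair genes were described first, and stretches of 4 promoters are shown. These were picked by the smallest p among members whose promoter held TATAAA in the stretch, so its presence in them was set by the choice. From RefSeq (GRCm38.p6), 7 of the 12 hair shaft keratins tested, 30 of 33 KRTAPs and 14 of 15 inner root sheath genes matched a promoter entry by symbol. Of the matched genes, 5 hair shaft keratins lay on chromosome 11 and 2 on chromosome 15, while 13 KRTAPs lay on chromosome 11, 16 on chromosome 16 and 1 on chromosome 7. The letters TATAAA, searched on both strands in the 300 bases from 250 before to 50 after each start, were present in 5 of 7 hair shaft keratin promoters (71.4%), 25 of 30 KRTAP promoters (83.3%) and 9 of 17 inner root sheath promoters (52.9%), against 13.6% of all 32851 promoters. A match began 20 to 40 bases before the start in 3, 18 and 6 of these promoters, in the same order, against 2.5% of all promoters. Each stretch below runs 5′ to 3′ from 130 bases before to 20 bases after the start, with TATAAA in capitals. The positions are chr11:100029849-100029998 on the minus strand for Krt33b, chr11:100041535-100041684 on the minus strand for Krt34, chr16:89420092-89420241 on the minus strand for Krtap6-2 and chr11:99351099-99351248 on the minus strand for Krt27.
Krt33b: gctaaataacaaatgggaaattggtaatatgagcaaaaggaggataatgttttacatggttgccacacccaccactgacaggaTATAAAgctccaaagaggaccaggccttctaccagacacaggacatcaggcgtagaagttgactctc
Krt34: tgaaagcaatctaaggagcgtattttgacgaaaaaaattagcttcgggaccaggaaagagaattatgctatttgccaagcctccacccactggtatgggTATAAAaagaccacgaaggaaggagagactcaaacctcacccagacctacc
Krtap6-2: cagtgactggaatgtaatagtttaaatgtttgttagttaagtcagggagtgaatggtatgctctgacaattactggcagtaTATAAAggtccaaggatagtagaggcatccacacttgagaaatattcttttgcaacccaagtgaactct
Krt27: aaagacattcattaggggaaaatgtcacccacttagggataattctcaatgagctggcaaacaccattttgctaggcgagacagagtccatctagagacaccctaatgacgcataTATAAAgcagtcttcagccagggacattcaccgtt
The match began 47, 31, 49 and 15 bases before the start in these promoters, in the order given.

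Genes of the hair shaft were higher in HDB 15 mm than in HDB 10 mm skin. All 12 hair shaft keratins tested had a higher mean at 15 mm, 11 of them with no overlap between the groups, and the median log2 fold change was 5.18. The share of all genes that were higher without overlap was 11%. Of 47 KRTAPs measured 33 had enough counts to be tested, and since their levels at 10 mm were near 0 they could mostly pass only through the samples where they were high, so that their direction is partly set by the filter. These 33 were higher and 29 did not overlap, with a median of 5.19, or 4.79 with the 6 genes that had no count at 10 mm set at a bound of 3 counts over that group. The summed level of the hair shaft keratins was 17.5, 8.39 and 10.1 CPM in the 10 mm samples and 532, 73.5 and 70.4 CPM in the 15 mm samples. The summed KRTAP level was 4.74, 2.42 and 4.28 CPM at 10 mm and 312, 54 and 43.2 CPM at 15 mm. Replicate 1 of 15 mm carried by far the highest levels, and the other 2 samples still lay above all 10 mm samples.

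**Figure D2:**
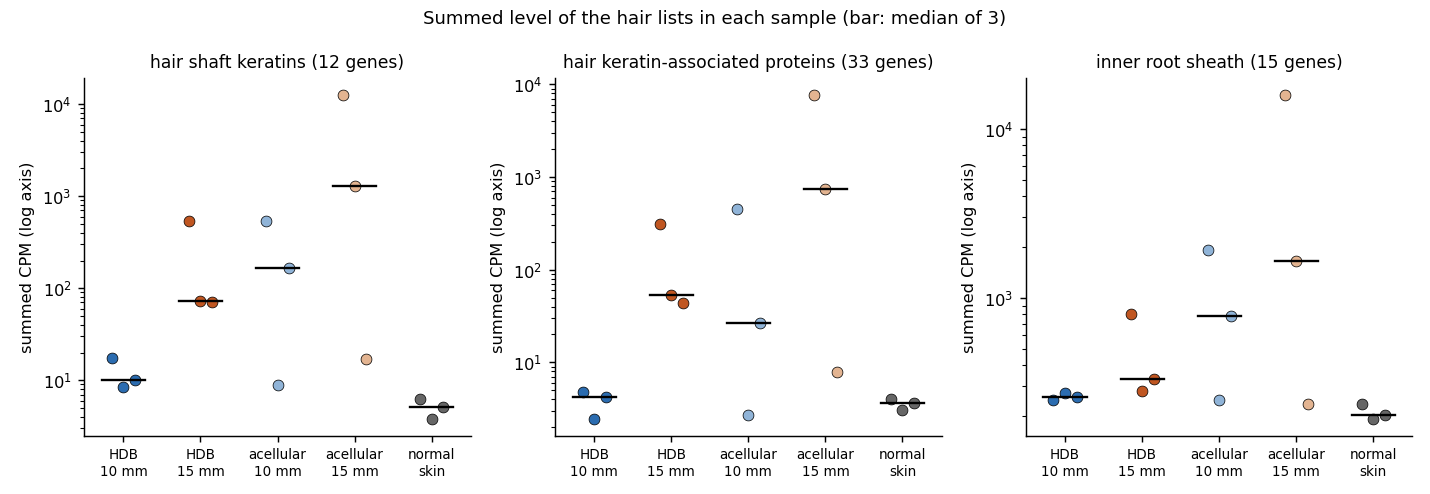
Summed CPM (log axis) of hair shaft keratins, KRTAPs and inner root sheath genes in each of the 15 samples, with a bar at the median of each group of 3. The HDB 15 mm samples lie above all HDB 10 mm samples in each panel, while acellular samples of both sizes range from near the level of normal skin to above the highest HDB 15 mm sample.

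Krt84, a type II hair keratin and the most abundant of these keratins over the 6 samples, was at 1.24, 1.51 and 0.5 CPM at 10 mm and at 83.1, 15.6 and 17.3 CPM at 15 mm. Its log2 fold change was 5.15 (standard error 1.50, adjusted p = 0.228 from edgeR and 0.0111 from DESeq2). Krt31, a type I keratin of the hair cortex, was at 1.36, 0.269 and 0.666 CPM against 53.5, 5.7 and 4.8 CPM. Krt83, a type II cortex keratin, was at 0.71, 0.269 and 0.944 CPM against 91.1, 10.4 and 5.25 CPM. In acellular 15 mm replicates 1 and 2 Krt83 was at 2803 and 228 CPM, while Krt84 was at 9.64 and 161 CPM. Krt33b had 1 count in all at 10 mm and was at 34.2, 2.79 and 2.37 CPM at 15 mm. Each of these genes was separated between the groups, and in each the highest sample was 15 mm replicate 1. Krtap8-1, the KRTAP with the highest level, was at 0.947, 0.0538 and 0.611 CPM at 10 mm and at 65.8, 12.5 and 6.1 CPM at 15 mm. Krtap6-2 had the smallest p of its list, 4.79 higher on the log2 scale (standard error 1.50, adjusted p = 0.247). Of the 12 hair shaft keratins 7 had an unadjusted p under 0.05 and 3 were called by DESeq2, beside 5.67% and 1.31% of all genes. Without 15 mm replicate 1 the medians were 3.16 for hair shaft keratins and 3.70 for KRTAPs. Members of the KRTAP and hair keratin families are near-identical in part, so reads may be divided unevenly among them and single members are less certain than the sums.

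The inner root sheath followed the same order at a smaller size. Of 15 genes 13 were higher at 15 mm, 11 without overlap (11% of all genes), with a median log2 fold change of 2.82 (1.86 without 15 mm replicate 1). DESeq2 called 0 of them, against 1.31% of all genes, and 3 had an unadjusted p under 0.05, against 5.67%. Krt71, a keratin of the sheath whose loss curls the coat, was at 4.79, 1.4 and 5.22 CPM at 10 mm and at 73.1, 17.6 and 17.6 CPM at 15 mm. Krt27, a type I keratin of the same sheath, was at 0.769, 0.753 and 2.28 CPM against 43.3, 6.97 and 8.7 CPM. Tchh, trichohyalin, was at 10.5, 16.6 and 13.2 CPM against 127, 38.4 and 34.7 CPM. Padi3, which deiminates trichohyalin, had the smallest p of the list, 4.26 higher on the log2 scale (standard error 1.76, adjusted p = 0.360). Gata3, a sheath regulator that is also made by other skin cells and is the most abundant member, overlapped between the groups at 109, 140.4 and 121 CPM against 127, 65.4 and 114 CPM.

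Other gene lists of the follicle were divided between higher and lower. Of 19 hair matrix regulators 9 were higher at 15 mm, 6 of them without overlap (11% of all genes), and 10 were lower, 1 without overlap (11.8% of all genes). Their median log2 fold change was -0.07, and 0.15 without 15 mm replicate 2. Those separated higher were Msx1, Msx2, Hoxc13, Dlx3, Dsg4 and Psors1c2, of which Dsg4 is a desmosome protein rather than a regulator. Hoxc13, a homeobox factor that drives hair keratin genes, was higher without overlap, at 9.41, 13.5 and 11.2 CPM against 54, 18.1 and 45.7 CPM. Lef1, a Wnt effector of matrix cells, overlapped at 10.9, 8.07 and 10.3 CPM against 10.3, 5.88 and 6.78 CPM. Edar, the ectodysplasin receptor of the early placode, was lower without overlap, at 7.81, 8.39 and 7.33 CPM against 4.68, 3.82 and 3.61 CPM (log2 fold change -0.96, standard error 0.39, adjusted p = 0.353). Among 15 genes of the bulge stem cells and outer root sheath 10 were higher, 2 of them without overlap (11% of all genes), and 5 lower, 3 without overlap (11.8% of all genes), and the median was 0.52. Lgr5, a stem cell receptor of the lower bulge and germ, was at 35.5, 33.5 and 31 CPM against 85.3, 35.4 and 93 CPM, so that 15 mm replicate 2 was close to the 10 mm samples. Of 17 dermal papilla genes 13 were lower at 15 mm, 5 without overlap (11.8% of all genes), with a median of -0.47, and Spon1, a secreted matrix protein, was at 50.4, 70.7 and 71.6 CPM against 39.1, 46.9 and 34.2 CPM. Melanocyte genes gave a median of -0.48 over 12 genes, which became 0.04 without 10 mm replicate 3. In the Wnt list 14 of 36 genes were higher, 3 without overlap (11% of all genes), and 22 lower, 7 without overlap (11.8% of all genes), with a median of -0.10. In the Hedgehog list 4 of 15 were higher and 11 lower, with a median of -0.10. Without 10 mm replicate 3 these medians were -0.0032 for Wnt and 0.04 for Hedgehog.

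The other groups of the series set the scale of the hair difference. In acellular skin the summed hair shaft keratins were at 535, 8.82 and 167 CPM at 10 mm and at 12671, 1277 and 16.9 CPM at 15 mm, so samples of both sizes overlapped widely, and normal skin held 6.25, 3.75 and 5.16 CPM. The median log2 fold change of 15 mm minus 10 mm was 4.35 for hair shaft keratins and 3.81 for KRTAPs in acellular wounds, in the same direction as under HDB. The HDB 10 mm samples lay above normal skin in this sum by a small margin, and the HDB 15 mm samples by a wide one. In acellular skin the summed hair matrix regulators were at 465, 271 and 459 CPM at 10 mm and at 2527, 530 and 234 CPM at 15 mm, and the summed melanocyte genes at 311, 267 and 371 CPM at 10 mm and at 2836, 140 and 261 CPM at 15 mm. Both were far higher in acellular 15 mm replicate 1 than in any other sample of these groups, and their acellular medians of 1.17 and 2.19 were not computed without that library. The difference of the size effect between HDB and acellular wounds was tested directly, and edgeR called 0 of 15369 genes (0%), with 2063 at an unadjusted p under 0.05, while DESeq2 called 868.

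Cholesterol genes went the other way, and the promoters of 3 members and of a cell cycle gene are shown beside them. These were picked in the same way, for holding the letters CCAAT on either strand of the stretch. RefSeq promoters were found for 16 of the 24 genes of cholesterol synthesis and uptake and for 24 of the 30 proliferation genes. The CCAAT box, searched as CCAAT on both strands, was present in 16 of 19 promoters of the cholesterol list (84.2%) and in 23 of 25 of the proliferation list (92%), against 37.4% of all promoters, 5 of 7 of the hair shaft keratins, 13 of 30 of the KRTAPs (43.3%) and 6 of 17 of the inner root sheath genes (35.3%). TATAAA was in 0 of 19 and 0 of 25 promoters of these lists. Matches of the motifs were counted separately, so that overlapping ones count for both. The same stretch of each promoter is given with CCAAT or its complement ATTGG in capitals, at chr13:119690221-119690370 on the plus strand for Hmgcs1, chr13:8885476-8885625 on the plus strand for Idi1, chr10:76531475-76531624 on the plus strand for Lss and, for the cell cycle genes described further on, chr1:128359686-128359835 on the minus strand for Mcm6.
Hmgcs1: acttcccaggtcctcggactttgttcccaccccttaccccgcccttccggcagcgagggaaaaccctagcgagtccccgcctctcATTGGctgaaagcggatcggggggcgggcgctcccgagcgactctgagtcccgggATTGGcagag
Idi1: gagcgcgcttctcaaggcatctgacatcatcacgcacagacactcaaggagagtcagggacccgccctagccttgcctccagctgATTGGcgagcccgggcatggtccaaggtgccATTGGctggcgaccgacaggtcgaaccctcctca
Lss: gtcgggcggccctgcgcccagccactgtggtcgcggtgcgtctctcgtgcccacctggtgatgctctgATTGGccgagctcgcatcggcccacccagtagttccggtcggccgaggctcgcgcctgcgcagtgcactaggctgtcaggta
Mcm6: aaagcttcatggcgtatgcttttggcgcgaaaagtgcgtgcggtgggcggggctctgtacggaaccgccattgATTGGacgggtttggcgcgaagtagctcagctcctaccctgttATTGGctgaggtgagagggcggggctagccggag
These matches are descriptions of the letters and were not tested as binding sites.

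Enzymes of cholesterol synthesis were lower in HDB 15 mm skin along the route. Of 24 genes of synthesis and uptake 23 were lower at 15 mm, 16 of them without overlap, against 11.8% of all genes. The median log2 fold change was -0.65, 17 genes had an unadjusted p under 0.05 (6.67% of all genes) and 13 were called by DESeq2 (2.35% of all genes). The summed level was 7298, 12476 and 7762 CPM in the 10 mm samples and 4739, 4858 and 4854 CPM in the 15 mm samples. The 15 mm samples lay close together, and 10 mm replicate 2, the library with the high neutrophil and low muscle genes, was the highest of the 10 mm group.

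Hmgcs1, which makes HMG-CoA, was at 769, 1202 and 827 CPM at 10 mm and at 451, 497 and 483 CPM at 15 mm, and had the smallest p of the list (log2 fold change -0.97, standard error 0.20, adjusted p = 0.212 from edgeR and 0.000553 from DESeq2). Idi1, which isomerises the isoprene unit, was at 469, 1112 and 627 CPM against 281, 362 and 305 CPM. In each of these the lowest 10 mm sample, replicate 1, still lay above the highest 15 mm sample. Sqle, squalene epoxidase, was at 158, 268 and 182 CPM against 103, 105 and 110.2 CPM. Lss, lanosterol synthase, was at 274, 466 and 272 CPM against 140.5, 179 and 112 CPM. These 4 members span the route from HMG-CoA to lanosterol, and their log2 fold changes lay between -0.93 and -1.23. Each lay beyond the list median of -0.65, and Idi1, Sqle and Lss were chosen after their values were seen. Sc5d was the exception of the list at 0.01. Without 10 mm replicate 2 the median of the list was -0.40, and with each sample's trend with transcript length removed it was -0.70.

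**Figure D3:**
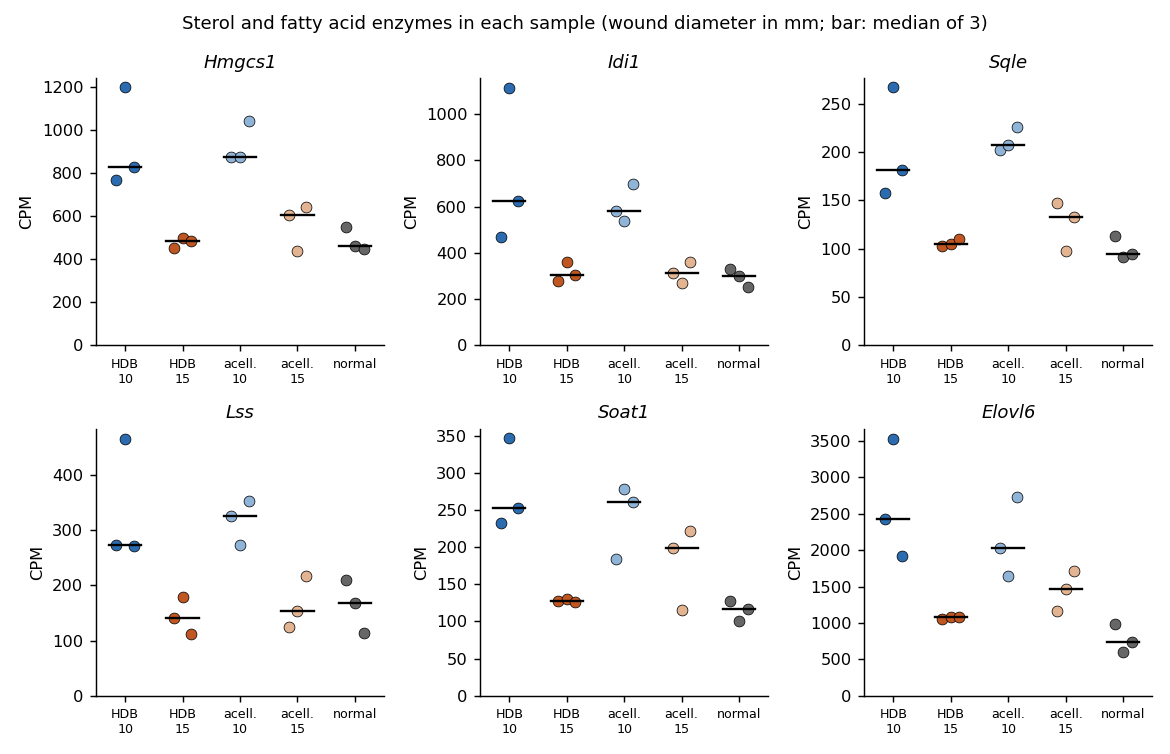
CPM of 6 enzymes of sterol and fatty acid synthesis in each of the 15 samples, with a bar at the median of each group of 3 and axes starting at 0. The 3 HDB 15 mm samples lie below the 3 HDB 10 mm samples in each panel.

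Sebaceous lipid genes were lower alongside. Of 16 genes 14 were lower at 15 mm, 6 without overlap (11.8% of all genes), 8 had an unadjusted p under 0.05 (6.67%) and 4 were called by DESeq2 (2.35%), with a median log2 fold change of -0.59 (-0.39 without 10 mm replicate 2). Soat1, which esterifies cholesterol for storage, was at 232, 347 and 253 CPM against 127, 130.3 and 126 CPM (log2 fold change -1.12, standard error 0.24, adjusted p = 0.212 from edgeR and 0.00121 from DESeq2). Elovl6, a fatty acid elongase, was at 2426, 3521 and 1918 CPM against 1059, 1088 and 1087 CPM. Far2, which makes the fatty alcohols of wax esters, was at 1209, 1939 and 1084 CPM against 734, 607 and 651 CPM. These 15 mm values differed little among the samples. Awat1, a wax synthase confined largely to sebocytes, was at 96.1, 197 and 108 CPM against 82.5, 64.7 and 90.4 CPM. Scd1, the most abundant member, overlapped at 7353, 11446 and 9157 CPM against 5549, 9513 and 3875 CPM. Fasn, fatty acid synthase, also made by fat cells, overlapped at 1135, 1395 and 989 CPM against 934, 2208 and 469 CPM.

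The lower cholesterol and sebaceous levels at 15 mm were also present without cells. In acellular wounds the median log2 fold change was -0.74 for the cholesterol list, whose sums did not overlap, and -0.77 for the sebaceous list, whose sum in 1 of the 15 mm samples reached the 10 mm range. Mean Hmgcs1 was 931 CPM in acellular 10 mm, 562 CPM in acellular 15 mm and 487 CPM in normal skin, beside 932 ± 235 CPM for HDB at 10 mm and 477 ± 23.8 CPM for HDB at 15 mm (SD, n = 3 each). Mean Elovl6 was 2131, 1451 and 773 CPM in the same order, beside 2622 ± 819 and 1078 ± 16.8 CPM (SD, n = 3 each). For Hmgcs1 the HDB 10 mm mean was close to that of acellular 10 mm skin and the HDB 15 mm mean to that of normal skin, and for Elovl6 the HDB 15 mm mean lay between acellular 15 mm and normal skin. These neighbouring means were not tested against each other.

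Proliferation genes were lower in HDB 15 mm skin, each by a modest amount. All 30 cell cycle genes tested were lower at 15 mm, 23 of them without overlap against 11.8% of all genes, with a median log2 fold change of -0.54. Of these 0 had an unadjusted p under 0.05 and DESeq2 called 0. The summed level was 1003, 1291 and 1294 CPM at 10 mm and 857, 759 and 785 CPM at 15 mm. Mki67, the gene of the Ki67 antigen, was at 158, 196 and 214 CPM at 10 mm and at 101, 98.8 and 91.3 CPM at 15 mm (log2 fold change -0.96, standard error 0.53, adjusted p = 0.491, with 0.181 to 0.764 over the alternatives). Mcm6, a helicase subunit of DNA replication, was at 38.1, 45.1 and 50.8 CPM against 26.8, 23.6 and 25.9 CPM. Top2a, which untangles DNA in dividing cells, was at 90.6, 127 and 125 CPM against 72.3, 66.6 and 58.6 CPM. Normal skin was lower still, with a mean Mki67 of 42.7 CPM, and in acellular wounds it was at 135, 161 and 280.0 CPM at 10 mm and at 698, 121 and 137 CPM at 15 mm. The summed list was at 1156, 1251 and 1668 CPM in acellular 10 mm and at 3620, 778 and 939 CPM in acellular 15 mm skin, so that replicate 1 carried the higher mean at 15 mm and the other 2 samples lay below all of the 10 mm samples.

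Most keratinocyte genes of the surface epidermis overlapped. Of 15 basal and suprabasal genes 10 were lower at 15 mm, with a median of -0.18 (0.01 without 15 mm replicate 2), and DESeq2 called 2 (2.35% of all genes). Itga6, the hemidesmosome integrin, was the only one without overlap (11.8% of all genes), at 197, 214 and 205 CPM against 164, 139 and 131 CPM. Of 24 cornified envelope genes 19 were lower and 0 were separated, with a median of -0.55 (-0.18 without 10 mm replicate 3). Lower at an unadjusted p under 0.05 were 6 (6.67% of all genes), and DESeq2 called 3 (2.35%). Sprr1b, a crosslinked envelope protein raised in irritated epidermis, was at 0.178, 11.7 and 15.9 CPM against 0.343, 0.242 and 0.282 CPM, so that 10 mm replicate 1 matched the 15 mm samples. Among 17 wound keratinocyte genes 7 were higher, 2 without overlap (a share near the 11% of all genes), and 10 lower, 0 without overlap and 4 called by DESeq2 (2.35% of all genes). The median was -0.15, and -0.56 without 10 mm replicate 1. Stfa3, a stefin A protease inhibitor, was at 9, 218 and 119 CPM against 4.74, 4 and 14 CPM, while Krt17, a keratin of wounded and follicular epithelium, was at 415, 684 and 864 CPM against 1493, 642 and 1299 CPM.

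Dermal genes were mostly higher at 15 mm, with overlapping samples. Of 32 fibroblast matrix genes 30 were higher and 5 did not overlap, a share near the 11% of all genes, with a median log2 fold change of 0.47. An unadjusted p under 0.05 was found for 6, against 5.67% of all genes, and DESeq2 called 0, against 1.31%. Col1a1 overlapped at 1936, 2294 and 2529 CPM against 1631, 2735 and 4019.7 CPM, and Col3a1, the most abundant, at 3324, 3717 and 4409 CPM against 3111, 6408 and 6258 CPM. Serpinh1, the collagen chaperone HSP47, was separated, at 293, 348 and 405 CPM against 449, 688 and 591 CPM (log2 fold change 0.73, standard error 0.26, adjusted p = 0.293). Of 23 matrix proteases and inhibitors 17 were higher, 9 of them without overlap (11% of all genes), with a median of 0.34 (0.51 without 15 mm replicate 1). Mmp14, a membrane-bound collagenase, was at 392, 309.9 and 319 CPM against 486, 512 and 898 CPM, and Plat, tissue plasminogen activator, at 28, 34.8 and 38.9 CPM against 43.1, 48.7 and 55.2 CPM. In acellular wounds the summed matrix genes were at 6847, 9758 and 6939 CPM at 10 mm and at 6676, 8488 and 23301 CPM at 15 mm, so that only replicate 3 of 15 mm lay above the 10 mm samples. Of 18 genes of myofibroblasts and smooth muscle 13 were higher, with a median of 0.17 (0.01 without 10 mm replicate 2 and 0.33 without 10 mm replicate 1). Skeletal muscle genes of the layer beneath the skin had a median of 0.09, which was -0.52 without 15 mm replicate 2 and 1.74 without 10 mm replicate 1. TGF-beta and BMP genes had a median of 0.14 over 34 genes (0.06 without 15 mm replicate 3 and 0.08 with GC trends removed), among which Id3, a BMP target that blocks differentiation factors, was separated at 44.4, 49.2 and 40.1 CPM against 88.1, 82.5 and 81.8 CPM (log2 fold change 0.92, standard error 0.25, adjusted p = 0.217 from edgeR and 0.0158 from DESeq2).

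Fat, vessel and nerve genes rested on few samples. Of 20 dermal adipocyte genes 18 were higher at 15 mm, with a median of 0.95, and 0 were separated. Adipoq, the fat cell hormone adiponectin, was at 197, 90.2 and 180.2 CPM against 435, 608 and 147 CPM, with 15 mm replicate 3 inside the 10 mm range, and the median was 0.40 without 15 mm replicate 2. Of 22 endothelial genes 21 were higher, 3 without overlap, a share near the 11% of all genes, with a median of 0.39 that became 0.09 without 15 mm replicate 2. Pecam1, whose product CD31 marks vessels, overlapped at 84.9, 49.3 and 87 CPM against 85.7, 139.8 and 57.3 CPM. Egfl7, secreted by endothelium, was separated at 26.5, 20.9 and 32.2 CPM against 38.3, 50.4 and 37.3 CPM. The 4 erythrocyte genes tested were higher with a median of 2.21, or 1.21 without 15 mm replicate 2, the sample with the highest Hba-a1 (599.7 CPM). The part of blood left in the tissue was not tested. Of 16 Schwann cell genes 13 were higher, with a median of 0.56 (0.27 without 10 mm replicate 2), and 5 of 8 lymphatic genes, with a median of 0.37 (0.13 without 10 mm replicate 1).

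**Figure D4:**
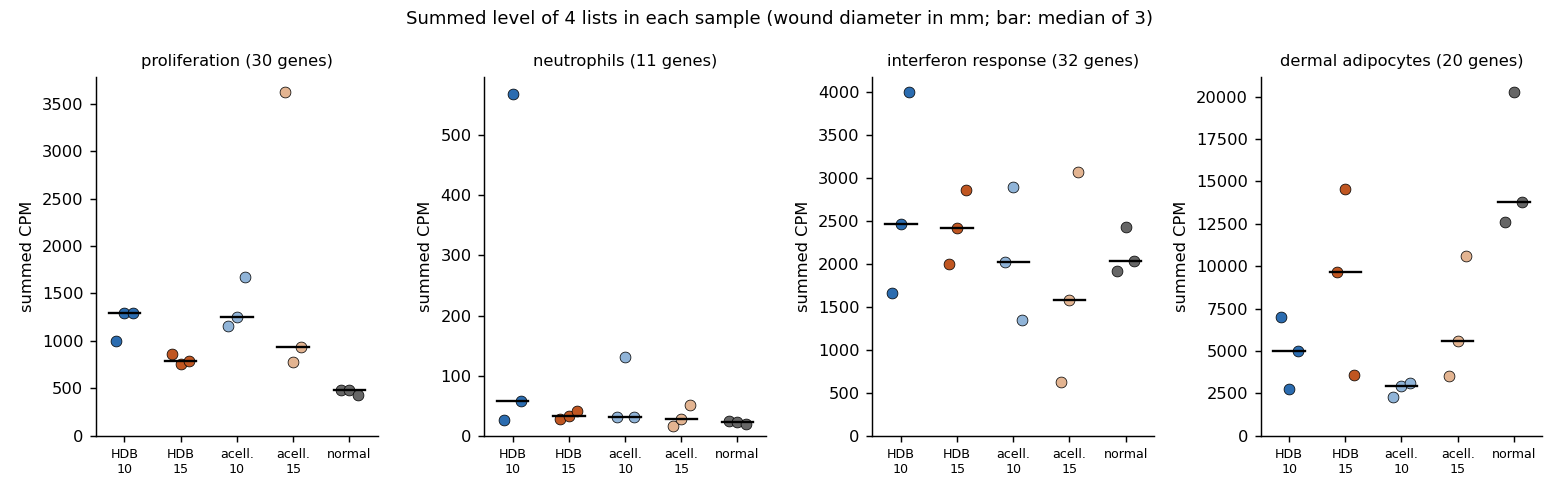
Summed CPM of proliferation, neutrophil, interferon response and dermal adipocyte genes in each of the 15 samples, with a bar at the median of each group of 3 and axes starting at 0. The HDB 15 mm samples lie below all HDB 10 mm samples for proliferation, while the neutrophil sum is set apart by a single HDB 10 mm sample at 569 CPM.

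Of 22 macrophage and monocyte genes 14 were higher at 15 mm, 6 of them without overlap (11% of all genes), with 2 called by DESeq2 (1.31% of all genes). The median was 0.24, and 0.05 without 15 mm replicate 2 and 0.46 without 10 mm replicate 2. The separated genes were Retnla, Cd163, C1qa, C1qb, C1qc and Mrc1. The 8 lower genes all overlapped, with Cd14, a co-receptor for lipopolysaccharide, the lowest at a log2 fold change of -1.81 and Spp1, osteopontin, at -0.58. Retnla was at 18, 3.07 and 13.9 CPM against 52, 105 and 34.1 CPM (log2 fold change 2.45, standard error 0.77, adjusted p = 0.252 from edgeR and 0.0498 from DESeq2). Cd163, the haptoglobin-haemoglobin scavenger receptor, was at 11, 2.42 and 9.94 CPM against 20.7, 36.6 and 15.9 CPM. In each of these the lowest sample was 10 mm replicate 2 and the highest 15 mm replicate 2. C1qa, C1qb and C1qc, the chains of complement C1q, had log2 fold changes of 1.16, 1.18 and 1.07, and Mrc1, the mannose receptor, of 0.99. Folr2, a folate receptor of macrophages, is outside the list and was chosen after its values were seen. It was at 4.02, 0.861 and 3.67 CPM against 9.2, 22.2 and 6.78 CPM. The general macrophage genes Cd68 and Lyz2 overlapped, Cd68 at 17, 33.4 and 24 CPM against 21.3, 30.3 and 29.4 CPM. Normal skin had more Cd163 and Retnla, with means of 86.5 and 183 CPM.

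Of 19 neutrophil genes measured 11 had enough counts to be tested, and all 11 were lower at 15 mm. Genes near 0 in most samples could pass mainly through the samples where they were high, so this direction may be partly set by the filter. An unadjusted p under 0.05 was found for 6 (6.67% of all genes), and DESeq2 called 3 (2.35%). Of these 11 genes 1 was separated (11.8% of all genes). The median was -2.44, and -0.62 without 10 mm replicate 2. S100a8, a calgranulin, was at 1.01, 72.5 and 3 CPM at 10 mm and at 1.71, 0.97 and 1.24 CPM at 15 mm, and Il1b was at 4.56, 219 and 17.9 CPM against 4.8, 5.52 and 7.79 CPM. In both genes 10 mm replicate 2 was far above the other samples, replicate 3 also lay above all 15 mm samples, and replicate 1 lay below at least 1 of them. Of 32 interferon response genes 29 were lower, 1 without overlap (11.8% of all genes), with a median of -0.58 that became -0.13 without 10 mm replicate 3. Ifi44 was at 6.69, 14.2 and 36.5 CPM against 6, 9.09 and 5.31 CPM. Of 21 T cell genes 15 were lower with a median of -0.31, or 0.03 without 10 mm replicate 3, and Cd3e, a chain of the T cell receptor complex, was at 3.2, 3.07 and 4.39 CPM against 2.57, 3.39 and 5.36 CPM. The 4 B and plasma cell genes tested had a median of -0.27 (-0.04 without 10 mm replicate 2). Of 11 mast cell genes 9 were higher, 4 without overlap (11% of all genes), with a median of 0.29 (0.13 without 10 mm replicate 1), and the mast cell protease gene Mcpt4 was at 18.8, 18 and 27.5 CPM against 42.7, 53.6 and 48.7 CPM (adjusted p = 0.443).

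The 5 genes that the study names as examples of the MSC secretome overlapped between the sizes. Vcam1, an adhesion molecule, was at 12.5, 13.1 and 20.5 CPM against 11.2, 18.4 and 15.4 CPM. Ccl5, a T cell chemokine, was at 2.72, 3.07 and 8.27 CPM against 2.68, 5.46 and 8.3 CPM. Il12b was at 1.95, 2.37 and 9.27 CPM against 1.94, 3.21 and 3.44 CPM. The highest 10 mm value of each was that of replicate 3, the sample with the highest interferon genes. The interferon-induced chemokines Cxcl9 and Cxcl10 were at 25.4, 55 and 109.9 CPM against 24.3, 29.1 and 45.6 CPM, and at 4.44, 13.2 and 23.1 CPM against 6.23, 4.79 and 4.01 CPM. The median log2 fold change of the 5 genes was -0.66, and 0.23 without 10 mm replicate 3. The study names these genes for samples of this series, so they are not independent evidence of a direction.

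Genes picked for the smallest p in each direction, with no overlap and at least 1 CPM, came from several functions. Gadd45a, a stress-induced cell cycle brake, was at 19.7, 16.7 and 15.1 CPM at 10 mm and at 38.3, 34.1 and 46.3 CPM at 15 mm (log2 fold change 1.20, standard error 0.18, adjusted p = 0.133). Its adjusted p over the alternatives ranged from 2.27e-07 with DESeq2 to 0.466. Cxcl13, the B cell chemokine, was at 0.829, 0.646 and 0.722 CPM against 4.34, 5.64 and 2.82 CPM, and Fcna, ficolin A of macrophages, at 0.651, 0.323 and 0.722 CPM against 3.14, 6.67 and 3.84 CPM. Mgp, which keeps matrix from calcifying, was at 19, 6.51 and 13.6 CPM against 37, 59 and 41.1 CPM, and Gdf10, a TGF-beta family ligand, at 9.12, 3.71 and 4.66 CPM against 22.9, 38.6 and 17.6 CPM. The remaining 5 were Jund, Nenf, Wnt9a, Palm and Cnih1, with log2 fold changes from 0.42 for Cnih1 to 0.92 for Palm. Of the 10 genes lower at 15 mm, Hivep3 was at 12.7, 9.25 and 14.1 CPM against 4.4, 4.73 and 4.12 CPM. Panx3, a channel protein of keratinocytes and bone, was at 49.4, 80.7 and 54.7 CPM against 23.3, 24 and 27 CPM, and Tmem56 at 138, 207 and 138 CPM against 74, 72.1 and 72.8 CPM. Lyst, which controls lysosome size, was at 61.2, 53 and 60.7 CPM against 34.2, 35.2 and 30 CPM, and Atp7a, the copper exporter, at 60.4, 60.7 and 63 CPM against 35.5, 39.2 and 33.4 CPM. The others were Naaladl2, Pik3c2a, Efr3a, Aadacl4fm5 and Cpox, with log2 fold changes between -1.51 for Aadacl4fm5 and -0.51 for Pik3c2a. With length trends removed the log2 fold changes were 0.24 for Cnih1, 0.46 for Nenf, -0.50 for Lyst and -0.33 for Pik3c2a, and with GC trends removed 0.37 for Jund. None of the 20 was called by edgeR, with adjusted p from 0.133 to 0.212. DESeq2 called all 20, but it used the same counts from which they were picked, so that is not independent support.

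Of 25 immediate-early genes 18 were higher at 15 mm, 5 without overlap (11% of all genes), and 7 lower, 3 without overlap (11.8%). Their median was 0.25, and 0.06 without 10 mm replicate 1 and 0.11 with GC trends removed. Jund, an AP-1 subunit, was at 97.8, 87.7 and 94.6 CPM against 148, 127 and 162 CPM. Of 15 heat shock chaperones 13 were higher, with a median of 0.23, among which Hspb1, a small chaperone of stressed and cornifying keratinocytes, was separated at 219, 146 and 159 CPM against 493, 364 and 500.3 CPM (adjusted p = 0.281). Circadian clock genes had a median of -0.11 (0.09 without 10 mm replicate 1), with Nfil3 separated at 32.3, 21.1 and 23.9 CPM against 44.7, 50.7 and 52.6 CPM. Hypoxia and glycolysis genes had a median of 0.02 (-0.20 without 15 mm replicate 2).

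Long transcripts were relatively lower in the HDB 15 mm libraries. The mean of genes in the upper quartile of transcript length (over 4764 bases) minus that of the lower quartile (under 2176 bases) was taken relative to the mean of the 6 HDB samples. It was 0.32, -0.01 and 0.26 on the log2 scale at 10 mm and -0.21, -0.05 and -0.29 at 15 mm, so the groups did not overlap. The same difference between genes in the upper and lower quartile of GC content was -0.03, -0.20 and -0.17 at 10 mm and 0.22, 0.03 and 0.14 at 15 mm, again without overlap. All 32 long chromatin regulators tested were lower at 15 mm, 27 without overlap (11.8% of all genes), 22 at an unadjusted p under 0.05 (6.67%) and 13 called by DESeq2 (2.35%), with a median log2 fold change of -0.37. Kmt2e, a SET domain protein, was at 104, 80.9 and 101 CPM against 59.1, 67.9 and 45.8 CPM, and Kmt2d, an enhancer histone methyltransferase, overlapped at 215, 143 and 229 CPM against 132, 146 and 132 CPM. With each sample's trend with transcript length removed, the median of this list was -0.10, and in acellular wounds it was 0.36. Short genes stood on the other side. Of 48 cytosolic ribosomal protein genes 46 were higher with a median of 0.17 (0.05 without 10 mm replicate 1), and of 47 oxidative phosphorylation genes 42 were higher, 7 without overlap, a share near the 11% of all genes, with a median of 0.22 (0.09 without 15 mm replicate 2). These medians became -0.06 and -0.01 once the trend was removed. In the same fit the medians were 5.08 for hair shaft keratins, 4.86 for KRTAPs, -0.58 for proliferation and -0.59 for sebaceous genes. With trends in GC content removed instead, the medians were 5.04 for hair shaft keratins, -0.53 for proliferation, -0.68 for cholesterol genes and -0.37 for the chromatin list. Removal of length trends also moved the medians of smaller differences, to 0.03 for myofibroblasts and smooth muscle, 0.19 for lymphatic endothelium, -0.09 for the epidermis and -0.29 for wound keratinocytes.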

How the data were processed

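RNA of whole skin was sequenced after oligo(dT) selection. Estimated counts that were not normalized, in 1 table, are what the authors deposited for 18929 mouse genes and 15 samples. The submitters' processing notes name GRCm38.p6, HISAT2 2.0.4, Bowtie2 2.2.5 and RSEM 1.2.12, with no role given, and the study's methods name DESeq2 and FPKM. Counts were rounded to whole numbers. Genes passing filterByExpr were tested by quasi-likelihood in edgeR 4.0.16 (R 4.3.3) after TMM scaling. All 15 samples entered a single model with 5 group means, with Benjamini-Hochberg adjustment over all genes tested and a threshold of 0.05. A standard error is the size of a log2 fold change over the root of its F statistic. CPM are TMM-normalized. Samples "do not overlap" where all 3 of one size lie on one side of all 3 of the other. A self-test on simulated counts preceded the fit.

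The comparison and 39 gene lists were chosen with earlier results of these data known. Named were the 10 genes a direction with the smallest p among those of at least 1 CPM and no overlap (no gene was called), the most abundant member and the member with the smallest p of each list, and 9 genes taken from the study (5 secretome genes, 4 of proteins stained in skin). Another 23 genes, among them Krt31, Krt83, Elovl6, Folr2 and Kmt2d, and both promoter motifs were chosen after their values were seen. Alternatives were DESeq2 1.42.0, no filter, a mean of at least 50 counts, only the 6 HDB samples, only the 4 wound groups, the replicate block, removal of trends with transcript length or GC content (from GENCODE M21, matched for 98.2% of genes), leaving out each HDB sample and a log2 fold change of at least 1. Some values, among them those of members that the naming rule selects, are not reported here. Replicates differed by more than sampling noise.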

Additional observations from a re-analysis of the deposited data

How the results depend on the processing

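The count of 0 genes called by edgeR held in each alternative fit of edgeR, with unadjusted counts from 1266 to 2403 genes, and DESeq2 called 563, 139 of them with a log2 fold change of at least 1. For the difference of the size effect from acellular wounds, edgeR called 0 in each alternative and DESeq2 called 868. Nothing says what a replicate number marks, and same-number samples of the 2 sizes did not deviate together (correlations of -0.03, -0.54 and 0.0013). With the replicate block 0 genes were called, with 1735 at an unadjusted p under 0.05.

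Of the named genes 22 turned sign, most with a small difference, but Il12b (-0.66) and Jchain (-0.55) among them. With the length trend removed, without and with the block, values were -0.016 and -0.016 for Krt5, -0.12 and -0.29 for Acta1, 0.0018 and 0.0013 for Fosl2, 0.051 and 0.055 for Bmpr1a, -0.16 and -0.12 for Ccl5, and -0.085 and -0.047 for Cd68, and with both, only, -0.067 for Aldoa and -0.016 for Cd3e. With the GC trend removed, without and with the block, they were -0.039 and -0.035 for Krt5, 0.016 and 0.019 for Bmpr1a, 0.062 and 0.059 for Vcam1 and -0.073 and -0.20 for Fasn, and with the block -0.15 for Acta1. The replicate block alone gave -0.072 for Acta1 and -0.095 for Fasn. Leaving out single samples gave ranges that cross 0 of -0.49 to 1.79 for Acta1, -0.20 to 0.91 for Aldoa, -0.19 to 0.13 for Atp5b, -0.21 to 0.92 for Ccl5, -0.25 to 0.30 for Cd3e, -0.29 to 0.38 for Cd3g, -0.11 to 0.38 for Cd68, -0.026 to 0.59 for Cd74, -0.046 to 0.58 for Col1a1, -0.74 to 0.42 for Fasn, -0.19 to 0.16 for Fzd6, -1.03 to 0.41 for Il12b, -0.96 to 0.66 for Jchain, -0.13 to 0.32 for Krt5, -0.075 to 0.50 for Lyz2, -0.046 to 0.61 for Pecam1, -0.19 to 0.074 for Rpl4, -0.45 to 0.050 for Tef, -0.34 to 1.56 for Tpm2 and -0.21 to 0.23 for Vcam1. The cause was not tested. Depth was alike in the 6 samples and limits the genes with a few counts at 10 mm, as the KRTAPs.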
